A study of Mus musculus with 11 samples.

Results

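The genes described here build and use the neuronal cytoskeleton: tubulins, the stathmins that bind them, microtubule-associated and end-binding proteins, kinesins, dynein and dynactin, intermediate filaments, and the ankyrins and spectrins under the membrane. They were chosen by gene symbol from the array's platform annotation (symbols that begin with Kif and a digit, Klc, Tuba, Tubb, Tubg, Dync, Dynl, Dctn, Stmn, Nef, Ank and a digit, Spta, Sptb or Mapre, and 11 named symbols, among them Map2, Dcx, Vim and Nes). This gave 59 probes of 57 genes among 6856 probes on the array, of which 52 probes of 51 genes had enough values to be tested. The symbol rule itself uses no measured value, though it was drawn up with earlier results of these data known. No probe carried a Klc, Tubg or Mapt symbol, and those genes are not analysed here.

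Neocortex was taken from mouse embryos at embryonic day 18 on a C57BL/6 background, and the RNA of 1 null mutant embryo per array, from a line that the record calls synaptically silent, was hybridised on 11 arrays with 2 colours against wild-type RNA. The design text counts 11 biological replicates of the mutant and a pool of 11 wild-type replicates, which was read as 1 common pool, so that the spread among wild-type embryos is not in any error given here. The mutant RNA was labelled with Cy3 on arrays 1, 2, 6, 7, 8 and 10 and with Cy5 on arrays 3, 4, 5, 9 and 11. For arrays 1 and 6 the labels contradict each other on the age of the wild-type RNA, with embryonic day 14 in one field and day 18 in another.

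Microtubules are hollow polymers of alpha and beta tubulin along which kinesins carry cargo, most of them towards the plus end, and dynein with its dynactin complex towards the minus end. Stathmins bind free tubulin and promote disassembly, whereas microtubule-associated proteins stabilise the lattice and end-binding proteins track its growing tips. In the embryonic cortex the same polymer forms the spindle of dividing progenitors and the core of growing axons and dendrites, while neurofilaments, alpha-internexin, vimentin and nestin form the intermediate filaments of neurons and progenitors.

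The measurements are the deposited log ratios, taken as log2 of null over wild type. Neither the log base nor the direction is given in the sources used here, so the direction is only likely. If it were the opposite on every array, every sign below would turn. Xist, a transcript of female cells, was under -4 on 6 of the 10 arrays with a value (-7.37 to -4.18) and between 0.0024 and 0.67 on the other 4, and no 2 arrays were negatively correlated over the probes (lowest Pearson r 0.0092). Between 4822 and 6316 probes had a value on an array, array medians lay between -0.045 and 0.044, and array SDs between 0.27 and 0.56, highest on array 4. Spot intensities were not used here, so no ratio can be set against background or saturation, the levels of 2 genes cannot be compared, and the tissue could not be checked by the level of its markers. In RNA from whole neocortex, fewer cells of a type and less RNA per cell cannot be told apart.

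Across the cytoskeletal probes the null neocortex differed in both directions and mostly by little. Of the 52 probes tested, 16 passed (30.8%), 7 of them higher and 9 lower in the null, at a Benjamini-Hochberg adjusted p of 0.05 in limma over all probes. The background was 28.6% of all 5399 probes tested, with 14.7% higher and 14% lower, so the share of cytoskeletal probes that passed was near that of the array as a whole. Their median log2 ratio was -0.061, beside -0.0051 for all probes tested, and 46 of the 52 (88.5%) lay within 0.3 of 0, as did 89.7% of all probes tested. The lowest ratio was that of Map1b (-0.57) and the highest that of Tuba1c (0.35). Only 3 of the 52 probes tested, those of Stmn3, Tuba8 and Tuba1c, had the same sign on every array that measured them (5.77%, against 9.21% of all probes tested). Stathmins and neurofilaments each held 1 member that rose and 1 that fell.

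**Figure D1:**
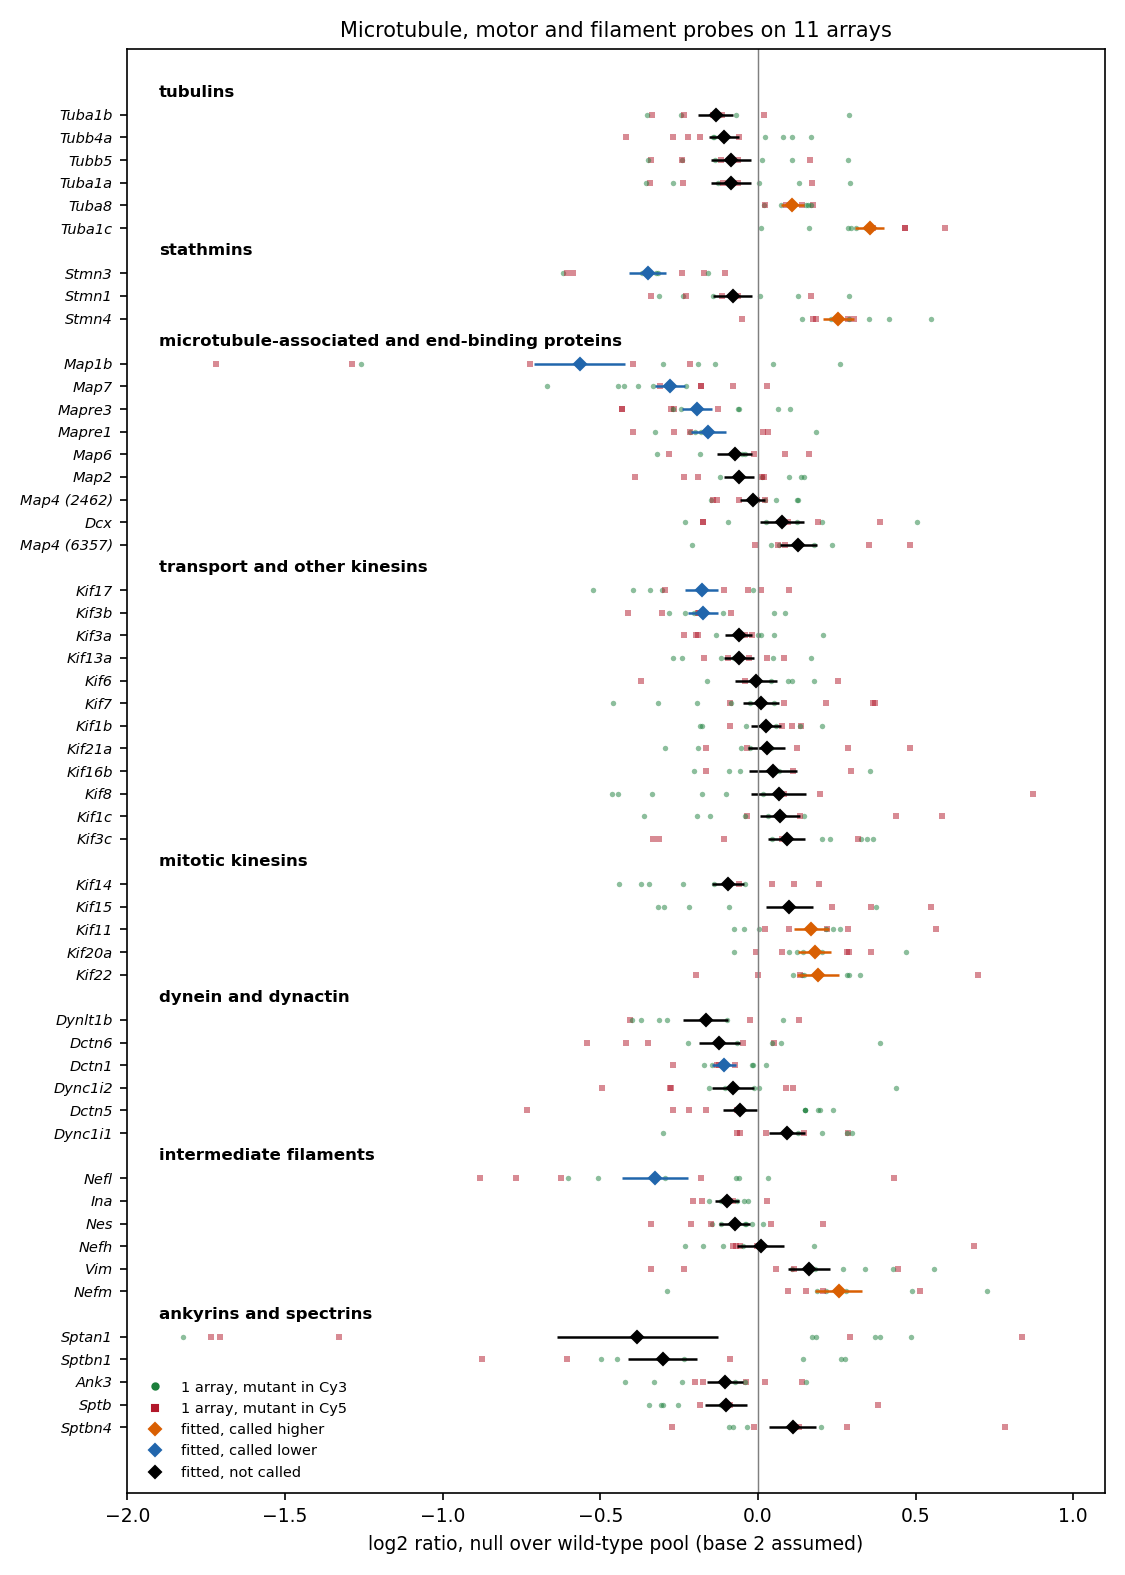
Log2 ratio of null over the wild-type pool (horizontal axis, base 2 assumed) for the microtubule, motor and filament probes tested, ordered by role. Small points are single arrays, coloured by the dye of the mutant RNA, diamonds with bars are the fitted ratio ± 1 SE, and Sptan1 and Map1b reach the lowest single ratios (-1.82 and -1.72).

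Among the tubulins, Tuba1c and Tuba8 rose and the other 4 probes tested did not pass. Tuba1c, an alpha tubulin, had log2 ratios of 0.30, 0.01, 0.37, 0.47, 0.31, 0.34, 0.16, 0.47, 0.29 and 0.59 on arrays 1, 2, 3, 5, 6, 7, 8, 9, 10 and 11, with no value on array 4. It was higher in the null on 10 of 10 arrays, with array 2 close to 0. Its fitted log2 ratio was 0.35 ± 0.047 (SE, n = 10), a fold of 1.28 (adjusted p = 0.00015). Tuba8, an alpha tubulin of divergent sequence, was higher on 11 of 11 arrays but by far less, between 0.021 and 0.17, with a fitted log2 ratio of 0.11 ± 0.036 (SE, n = 11, adjusted p = 0.037). Its call was lost when any 1 of arrays 3, 6, 7, 8, 9, 10 or 11 was left out.

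Tuba1a, the main alpha tubulin of young neurons, did not pass (-0.086 ± 0.064, SE, n = 11, adjusted p = 0.34), nor did Tuba1b (-0.13, adjusted p = 0.089), Tubb5 (-0.086, adjusted p = 0.32) or Tubb4a (-0.11, adjusted p = 0.096). The last 3, like the other genes named here outside the 16 that passed and outside the fixed list of tubulins, kinesins and filaments given in the processing summary, are named after their values were seen. Tuba1c exceeded Tuba1b by 0.48 ± 0.089 (SE, n = 10) on the log2 scale on 9 of 10 arrays (exact sign-flip p = 0.0039, adjusted p = 0.059 over 170 pairs of probes of the same role), so the difference did not pass after adjustment. Alpha tubulin genes are alike in sequence, and how far each probe also bound the transcripts of its relatives was not tested.

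Tuba1b, Tuba1a and Tuba1c lie beside each other on chromosome 15, with 0 protein-coding genes between Tuba1b and Tuba1a and 0 between Tuba1a and Tuba1c. The windows from 250 bases before to 50 bases from the gene start on are shown for the last 2 of these, since Tuba1c rose and Tuba1a, its neighbour, has the array profile described next. The sequences are from RefSeq on GRCm38.p6, printed 5′ to 3′ on the gene's strand, with capitals for any match to 5 motifs searched on both strands, which do not overlap in the windows shown. The motif CCAAT is known as the CCAAT box of many promoters. The motif GGGCGG is the GC box. The motif TTTGAA is the cell cycle homology region known from genes of late cell division. The motif TATAAA is the TATA box. The last motif, TGACGTCA, is the cyclic AMP response element. Tuba1a is at chr15:98953452-98953751 on the minus strand and Tuba1c at chr15:99029641-99029940 on the plus strand.
Tuba1a: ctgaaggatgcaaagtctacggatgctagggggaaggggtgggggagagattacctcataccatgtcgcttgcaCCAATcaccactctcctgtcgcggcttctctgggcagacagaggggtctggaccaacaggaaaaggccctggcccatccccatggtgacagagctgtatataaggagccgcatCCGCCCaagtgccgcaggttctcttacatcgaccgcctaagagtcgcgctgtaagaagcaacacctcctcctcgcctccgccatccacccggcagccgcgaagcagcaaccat
Tuba1c: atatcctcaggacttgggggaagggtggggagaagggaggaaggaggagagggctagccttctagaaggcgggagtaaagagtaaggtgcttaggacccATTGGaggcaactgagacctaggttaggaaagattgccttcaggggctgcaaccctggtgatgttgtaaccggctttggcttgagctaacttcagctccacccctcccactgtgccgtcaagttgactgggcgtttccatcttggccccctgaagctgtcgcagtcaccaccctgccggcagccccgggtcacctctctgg

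Counted from the gene start to the leftmost base of the match, the Tuba1a window held a CCAAT box at -176 and a reversed GC box at -63, and the Tuba1c window held a reversed CCAAT box at -151. Neither held an exact match to the other 3 motifs, and variants of a motif, such as other forms of the TATA box, were not searched. Of all 32851 promoter windows of this length in the table, 37.4% held the CCAAT box on either strand, 35.7% the GC box, 17.9% the cell cycle homology region, 13.6% the TATA box and 1.79% the cyclic AMP response element. Of the 57 genes, 44 had a window. A match describes letters in a window and nothing more.

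The Tuba1a profile was shared almost exactly by the probes of other transcripts, most of them known to be abundant in many cells. On arrays 1 to 11 the log2 ratios of Tuba1a were -0.27, 0.13, -0.34, 0.17, -0.06, -0.35, -0.13, 0.29, -0.24, 0.00 and -0.11, and those of Tubb5, a beta tubulin, were -0.24, 0.11, -0.34, 0.17, -0.06, -0.35, -0.14, 0.28, -0.24, 0.01 and -0.12. Of the 4110 other probes with all 11 values, 9 stayed within 0.05 of Tuba1a on every array. These were the probes of Tubb5, Stmn1, Rplp1, Rps15, Tpt1, Actg1, Eef1a1 (2 probes) and 1 without a gene name. They encode a beta tubulin, a stathmin, ribosomal proteins, a translation elongation factor, cytoplasmic actin and a tumour protein that binds tubulin. Over the whole array only 13 of 4111 probes (0.316%) had any other probe that close on every array. A further 4 probes came within 0.1, among them Rps14, Rplp0 and Rpl10. Tuba1b followed a similar course and departed most from it on arrays 2 and 4, where it was -0.12 and 0.02. Whether these spots were near the top of the scanner's range was not tested, since intensities were not used, and the ratios of Tuba1a, Tubb5 and Stmn1 here are therefore given without any reading of their size.

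**Figure D2:**
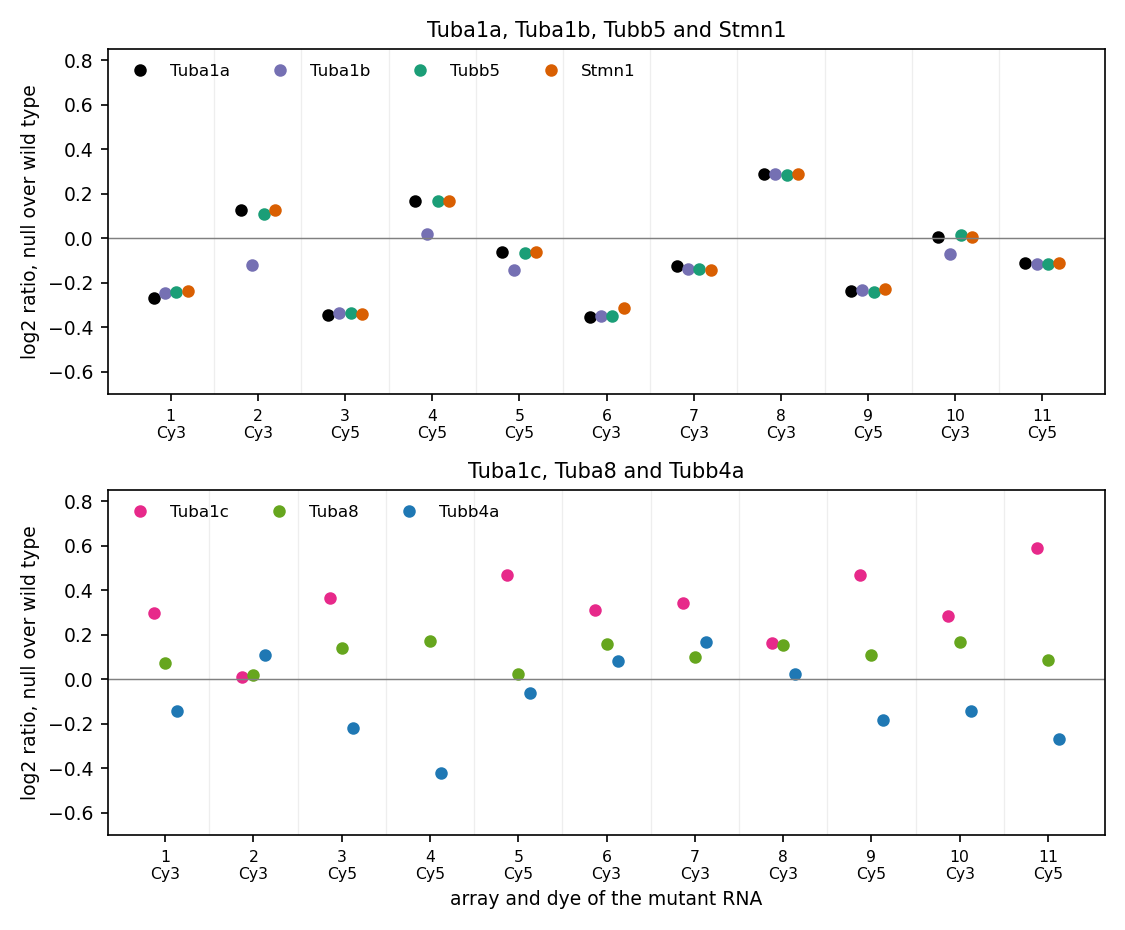
Log2 ratio of null over the wild-type pool by array (horizontal axis: array and dye of the mutant RNA), with points for single probes. Tuba1a, Tubb5 and Stmn1 (upper panel) lie within 0.05 of each other on every array, Tuba1b departs most on arrays 2 and 4, and Tuba1c and Tuba8 (lower panel) are above 0 on every array that measured them.

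The stathmins split into 1 that rose, 1 that fell and 1 that did not pass. Stmn3, a stathmin of neurons also called SCLIP, had log2 ratios of -0.62, -0.37, -0.17, -0.11, -0.24, -0.32, -0.36, -0.32, -0.61, -0.16 and -0.59 on arrays 1 to 11. It was lower in the null on 11 of 11 arrays, and least so on arrays 3, 4, 5 and 10. The fitted log2 ratio was -0.35 ± 0.058 (SE, n = 11), a fold of 0.785 (adjusted p = 0.00062). Stmn4, the stathmin also called RB3, had log2 ratios of 0.23, 0.14, 0.29, 0.31, 0.18, 0.29, 0.42, 0.35, -0.05, 0.55 and 0.18. It was higher on 10 of 11 arrays, with array 9 just below 0, and its fitted log2 ratio was 0.26 ± 0.048 (SE, n = 11), a fold of 1.19 (adjusted p = 0.0016). Stmn1, the stathmin of dividing and young cells, had a fitted log2 ratio of -0.080 ± 0.062 (adjusted p = 0.36) and the array profile of Tuba1a described above.

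Stmn4 exceeded Stmn3 on 11 of 11 arrays, by 0.61 ± 0.046 (SE) on the log2 scale and by at least 0.41 on any array. The exact sign-flip p was 0.00098, the smallest that 11 arrays can give, and the adjusted p over the 170 pairs was 0.059. The comparisons between members of 1 role were devised after the values were seen: 52 of the 170 pairs had an unadjusted p under 0.05 and 0 passed after adjustment. Beside the stathmins, the neuron marker list (18 probes tested) had 0 probes higher and 7 lower, with a median log2 ratio of -0.13. The background was 14.7% higher and 14% lower. The part of the neuron markers in the Stmn3 result was not tested.

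Of the intermediate filaments, the light and the middle neurofilament chain changed in opposite directions. Nefl, the light chain on which the filament assembles, had log2 ratios of -0.60, 0.03, -0.18, 0.43, -0.63, -0.07, -0.51, -0.29, -0.88, -0.06 and -0.77 on arrays 1 to 11. It was lower on 9 of 11 arrays and highest on array 4, and its fitted log2 ratio was -0.33 ± 0.11 (SE, n = 11, adjusted p = 0.032). The call was lost when any 1 of arrays 1, 5, 7, 8, 9 or 11 was left out, with adjusted p from 0.057 to 0.081 in those fits, and without arrays 3, 4 and 10, of which array 4 holds its highest value, the ratio moved to -0.52. Nefm, the middle chain, had log2 ratios of 0.49, 0.22, 0.25, 0.52, 0.15, 0.73, 0.19, 0.28, 0.10, -0.29 and 0.21. It was higher on 10 of 11 arrays, with array 10 the exception, and its fitted log2 ratio was 0.26 ± 0.075 (SE, n = 11, adjusted p = 0.021). Leaving out any 1 array kept its call, but without both arrays 1 and 6, those with the conflicting wild-type age, Nefm was at 0.17 (adjusted p = 0.098) and Nefl at -0.31 (adjusted p = 0.096).

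Nefl and Nefm are neighbours on chromosome 14 with 0 protein-coding genes between them. On the same arrays Nefm exceeded Nefl by 0.58 ± 0.13 (SE) on the log2 scale on 10 of 11 arrays (exact sign-flip p = 0.0039, adjusted p = 0.059 over the 170 pairs). Array 10, where Nefl was the higher, was the exception. Nefh, the heavy chain, was at 0.0083 ± 0.074 (n = 10) and turned to -0.065 without array 4. Ina, alpha-internexin, the filament protein of young neurons, was lower on 10 of 11 arrays by small amounts (-0.098 ± 0.038, adjusted p = 0.066) and passed without array 4 (adjusted p = 0.026).

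**Figure D3:**
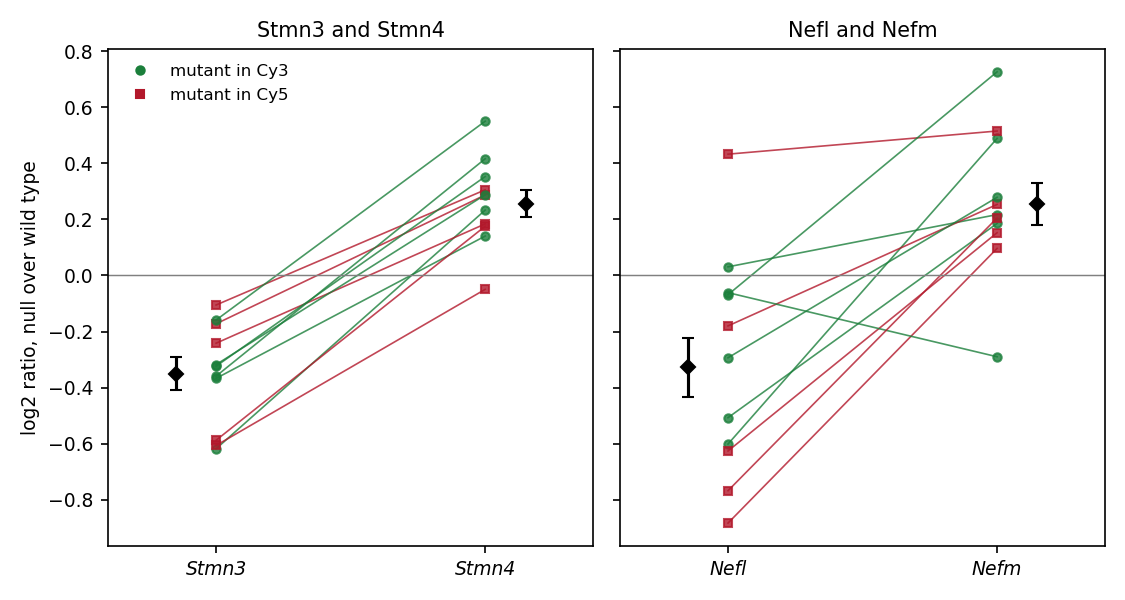
Log2 ratio of null over the wild-type pool (vertical axis) for Stmn4 and Stmn3 and for Nefm and Nefl, with a line joining the values of each array, coloured by the dye of the mutant RNA, and black diamonds with bars for the fitted ratio ± 1 SE. Stmn4 lies above Stmn3 on 11 of 11 arrays and Nefm above Nefl on 10 of 11.

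Vim and Nes, the filaments of progenitors and glia, did not pass. Vim had log2 ratios of 0.18, 0.11, 0.06, 0.11, 0.44, 0.43, 0.27, 0.34, -0.23, 0.56 and -0.34 on arrays 1 to 11, with only arrays 9 and 11 below 0. Both of these arrays carry the mutant in Cy5: the mean was 0.31 over the 6 Cy3 arrays and 0.0080 over the 5 Cy5 arrays, and the fit gave 0.16 ± 0.067 (SE, adjusted p = 0.089). Vim passed without array 11 (0.20, adjusted p = 0.040) and over the Cy3 arrays alone (adjusted p = 0.0098). The dye term itself did not pass for Vim (adjusted p = 0.20) or for any other cytoskeletal probe, the smallest adjusted p being 0.063, and it passed for 4 of all 5399 probes tested (0.0741%). Nes was at -0.074 ± 0.050 (adjusted p = 0.29). Vimentin is known from several kinds of non-neuronal cell, whose marker lists had these counts beside a background of 14.7% higher and 14% lower. For microglia and macrophages 8 of 11 probes were higher and 2 lower, for astrocytes 6 of 13 and 2, and for progenitors 4 of 12 and 1. For meninges and choroid plexus 5 of 10 were higher and 0 lower, and for vessels 3 of 10 were higher and 1 lower. Gfap, the astrocyte filament, was at 1.48 ± 0.11 (adjusted p = 3.9e-07, higher on 11 of 11 arrays). The part of these cells in the Vim ratio was not tested.

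Among microtubule-associated and end-binding proteins 4 of 9 probes fell and 0 rose, beside a background of 14.7% higher and 14% lower. Map7, which stabilises microtubules and recruits kinesin, had log2 ratios of -0.67, -0.23, 0.03, -0.18, -0.31, -0.44, -0.43, -0.33, -0.08, -0.38 and -0.18 on arrays 1 to 11. It was lower on 10 of 11 arrays, with a fitted log2 ratio of -0.28 ± 0.048 (SE, n = 11, adjusted p = 0.00080), and the mean was -0.41 over the Cy3 and -0.14 over the Cy5 arrays. Mapre3 and Mapre1, which encode the end-binding proteins EB3 and EB1, fell by 0.19 and 0.16 on the log2 scale (adjusted p = 0.0094 and 0.046). Mapre3 was lower on 9 of 11 arrays and kept its call whichever 1 array was left out, with a mean of -0.078 over the Cy3 and -0.31 over the Cy5 arrays. Mapre1 was lower on 8 of 11 arrays and lost its call without any 1 of arrays 1, 2, 5, 6, 7, 8, 9 or 11. Dcx, doublecortin of migrating neurons (0.076, adjusted p = 0.43), Map6, a stabiliser of cold-resistant microtubules (-0.074, adjusted p = 0.35), and both Map4 probes (-0.016 and 0.13) did not pass.

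Map1b, the microtubule-associated protein of growing axons, had the lowest fitted log2 ratio of the cytoskeletal probes, -0.57 ± 0.14 (SE, n = 11), a fold of 0.676 (adjusted p = 0.010). Its values on arrays 1 to 11 were 0.26, 0.05, -1.72, -1.29, -0.72, -0.19, -0.30, -0.13, -0.40, -1.26 and -0.22. The 4 lowest, on arrays 3, 4, 5 and 10, stood apart from the other 7, which lay between -0.40 and 0.26. The mean was -0.26 over the 6 Cy3 arrays and -0.87 over the 5 Cy5 arrays, which include arrays 3, 4 and 5. Without arrays 3, 4 and 10 the ratio was -0.25, and without array 5 as well it was -0.19, given with no test because these arrays hold its 4 lowest values.

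Sptan1, the alpha spectrin of the membrane skeleton of neurons, split the arrays in the same place and more sharply. Its log2 ratios on arrays 1 to 11 were 0.48, 0.18, -1.73, -1.71, -1.33, 0.39, 0.37, 0.17, 0.84, -1.82 and 0.29. Arrays 3, 4, 5 and 10 lay between -1.82 and -1.33 and the other 7 between 0.17 and 0.84. The fitted mean, -0.38 ± 0.26 (SE, n = 11, adjusted p = 0.28), describes neither set of arrays. The labels give arrays 3, 4, 5 and 10 nothing in common that the other arrays lack. The mutant was in Cy5 on arrays 3, 4 and 5 and in Cy3 on array 10. For Sptan1, Cy5 arrays 9 and 11 were at 0.84 and 0.29. The SD over all probes was highest on arrays 4, 10 and 3 (0.56, 0.36 and 0.35). Array 5, at 0.32, was below arrays 9 and 1 (0.33 on each). The part of this spread in the Sptan1 and Map1b values was not tested.

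Map2, the microtubule-associated protein of dendrites, was also lowest on these 4 arrays (-0.39, -0.19, -0.23 and -0.12) but by little, with -0.060 ± 0.048 in the fit (adjusted p = 0.23). Sptbn1, a beta spectrin and partner of Sptan1, was at -0.61, -0.87 and -0.50 on arrays 3, 5 and 10 with no value on array 4, at -0.45 on array 7, and between -0.24 and 0.27 on the other 5 arrays that measured it. Its fit gave -0.30 ± 0.11 (SE, n = 9, adjusted p = 0.056). It passed without array 1 (adjusted p = 0.044), 6 (0.047) or 11 (0.024), and was at -0.044 without arrays 3, 4, 5 and 10. Ank3, ankyrin G of the axon initial segment (-0.10, adjusted p = 0.18), Sptb (-0.10) and Sptbn4 (0.11) did not pass, so that 0 of 5 ankyrin and spectrin probes passed in the fit of all arrays, which does not show that they did not differ.

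The pattern was not particular to the cytoskeleton. Of the 4111 probes with all 11 values, 311 (7.57%) had arrays 3, 4, 5 and 10 as their 4 lowest and 127 (3.09%) as their 4 highest. Of the 40 cytoskeletal probes with all 11 values, 3 (7.5%) had them lowest, those of Sptan1, Map1b and Map2, and 1 highest, that of Stmn3. By the size of the gap to the other arrays, Sptan1 was in place 1 of the 311, Map1b in place 85 and Map2 in place 229. Among the lists, such probes numbered 5 of 23 for other microtubule regulators, 4 of 16 for neurons, 2 of 9 for motor adaptors and cargo linkers, 3 of 31 for actin and 1 of 8 for meninges and choroid plexus. The neuron probes included Syp, Stx1a and Syt1, which encode proteins of the synaptic vesicle and its release machinery. By the same gap they were in places 14, 23 and 29. Probes on none of the lists ranked higher, among them Gpr182 in place 2, Adam21 in place 3 and Itgb2 in place 9. The median of the neuron list was -0.78, -0.75, -0.19 and -0.61 on arrays 3, 4, 5 and 10 and between -0.15 and 0.030 on the other 7. The lists of astrocytes (11 such probes), dividing cells (17), microglia (10), oligodendrocyte lineage (6), progenitors (10) and vessels (6) had 0 probes with the pattern. Beside a share of 7.57% over all probes, these lists are too short for a count of 0 to set them apart. The part of neuron content in the Sptan1 and Map1b values was not tested.

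**Figure D4:**
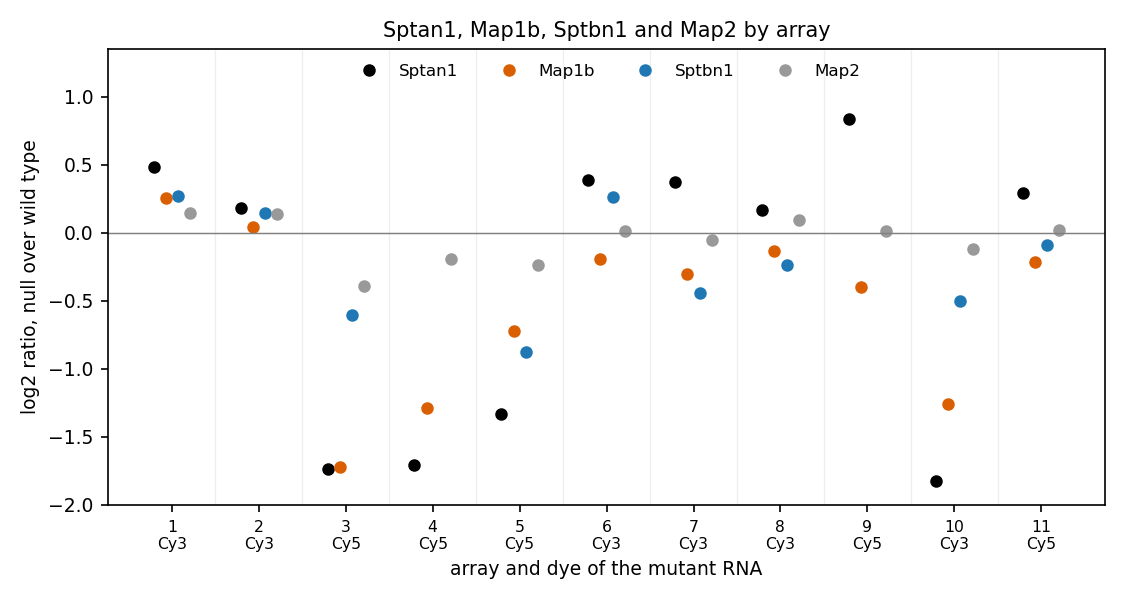
Log2 ratio of null over the wild-type pool by array (horizontal axis: array and dye of the mutant RNA) for Sptan1, Map1b, Sptbn1 and Map2, with points for single probes. Sptan1 lies between -1.82 and -1.33 on arrays 3, 4, 5 and 10 and between 0.17 and 0.84 on the other 7, and Map1b is lowest on the same 4 arrays.

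Among the kinesins, motors of the spindle and motors of transport are described apart, and the difference between these classes was not tested. Of 5 probes for mitotic kinesins, Kif11, Kif20a and Kif22 rose and 0 fell. Of 12 probes for transport and other kinesins, Kif17 and Kif3b fell and 0 rose. The background was 14.7% higher and 14% lower. The change was small throughout. Kif11, the motor that pushes spindle poles apart, had log2 ratios of 0.26, -0.04, 0.10, 0.22, 0.29, 0.22, 0.24, 0.00, 0.57, -0.08 and 0.02 on arrays 1 to 11. It was higher on 9 of 11 arrays, most on array 9, with a fitted log2 ratio of 0.17 ± 0.055 (SE, adjusted p = 0.035). Kif20a, which acts in the last step of cell division, was higher on 9 of 11 arrays, between -0.076 and 0.47 (0.18 ± 0.053, SE, adjusted p = 0.022). Kif22, a motor that binds chromosome arms, was higher on 10 of 11 arrays, between -0.20 and 0.70 (0.19 ± 0.066, SE, adjusted p = 0.045). Without both arrays 1 and 6, those with the conflicting wild-type age, all 3 lost their calls: Kif11 was at 0.13 (adjusted p = 0.16), Kif20a at 0.15 (adjusted p = 0.083) and Kif22 at 0.19 (adjusted p = 0.11). Kif20a kept its call whichever single array was left out, whereas Kif11 lost it without any 1 of arrays 1, 5, 6, 7 or 9 and Kif22 without any 1 of arrays 1, 2, 4, 5, 6, 7, 8 or 9. Kif14 (-0.095) and Kif15 (0.10), which also serve division, did not pass.

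The promoter windows of Kif11 and Kif22 are shown because both genes rose and both serve cell division. The window of Kif20a, which also rose and serves division, is not shown. They are printed as above, Kif11 at chr19:37376132-37376431 on the plus strand and Kif22 at chr7:127042371-127042670 on the minus strand, on GRCm38.p6.
Kif11: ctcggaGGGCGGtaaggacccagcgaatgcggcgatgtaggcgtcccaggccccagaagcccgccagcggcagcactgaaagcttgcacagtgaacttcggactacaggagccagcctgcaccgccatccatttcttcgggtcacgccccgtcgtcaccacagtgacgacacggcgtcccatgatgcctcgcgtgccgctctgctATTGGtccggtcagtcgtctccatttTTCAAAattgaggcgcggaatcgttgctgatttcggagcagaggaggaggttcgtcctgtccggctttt
Kif22: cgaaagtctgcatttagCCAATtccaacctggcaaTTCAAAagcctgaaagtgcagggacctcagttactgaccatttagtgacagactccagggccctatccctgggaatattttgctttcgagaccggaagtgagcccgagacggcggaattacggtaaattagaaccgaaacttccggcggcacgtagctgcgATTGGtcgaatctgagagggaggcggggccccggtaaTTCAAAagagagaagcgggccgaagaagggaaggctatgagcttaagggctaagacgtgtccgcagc

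The Kif11 window held a reversed CCAAT box at -45, a reversed cell cycle homology region at -19 and a GC box at -244. The Kif22 window held a reversed CCAAT box at -54, reversed cell cycle homology regions at -17 and -215, and a CCAAT box at -233. The cell cycle homology region stood in 7 of the 55 windows counted for the 57 genes, beside 17.9% of all windows in the table. The count of 55 leaves out the windows of a single chromosome.

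Some genes of dividing cells were also higher in the null. Of 22 probes on the dividing-cell list, which holds no kinesin, 8 were higher, 0 lower and 14 did not pass, beside a background of 14.7% higher, with a median log2 ratio of 0.16 and array medians between 0.027 and 0.21. Among those that did not pass were Mki67 (-0.11), Mcm7 (-0.11) and Cdc20 (-0.054), named after their values were seen. The median of the 5 mitotic kinesin probes lay between -0.044 and 0.34 on single arrays. Array 2 was lowest in both. The part of the number of dividing cells in the kinesin ratios was not tested.

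Of the transport kinesins that fell, Kif17, a dendritic motor, was lower on 9 of 11 arrays, between -0.52 and 0.099 (-0.18 ± 0.052, SE, adjusted p = 0.021), and missed the threshold only without array 9 among the fits that left out 1 array (adjusted p = 0.050). Its mean was -0.29 over the Cy3 arrays and -0.065 over the Cy5 arrays. Kif3b, a subunit of the heterotrimeric kinesin-2, was lower on 9 of 11 arrays, between -0.41 and 0.086 (-0.18 ± 0.048, SE, adjusted p = 0.015), and kept its call whichever 1 array was left out. Without both arrays 1 and 6, Kif3b was at -0.15 (adjusted p = 0.080) and Kif17 at -0.18 (adjusted p = 0.061), so both calls were lost. The other Kif3 probes tested, Kif3a (-0.061, adjusted p = 0.30) and Kif3c (0.091, adjusted p = 0.28), did not pass. Kif3c exceeded Kif3b by 0.27 ± 0.081 (SE) on 9 of 11 arrays (exact sign-flip p = 0.0098 before adjustment, and none of the 170 pairs passed after it). The other transport kinesins tested lay between -0.059 (Kif13a) and 0.071 (Kif1c).

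**Figure D5:**
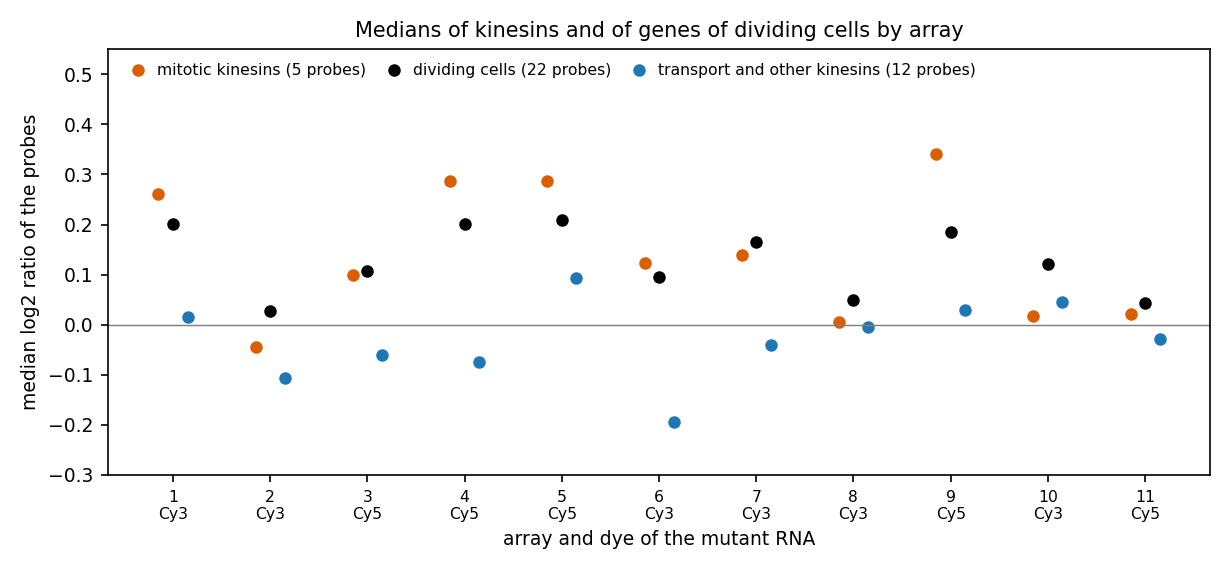
Median log2 ratio of null over the wild-type pool by array (horizontal axis: array and dye of the mutant RNA) for the 5 mitotic kinesin probes, the 12 transport and other kinesin probes, and the 22 probes of the dividing-cell list. The dividing-cell medians lie between 0.027 and 0.21, and the mitotic kinesin medians between -0.044 and 0.34.

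Of 6 dynein and dynactin probes, 1 fell and 0 rose, beside a background of 14.7% higher and 14% lower. Dctn1, the large subunit of dynactin that holds the microtubule, was lower on 10 of 11 arrays by small amounts, with a lowest value of -0.27 and a median of -0.12 (-0.11 ± 0.038, SE, adjusted p = 0.049). It lost its call without any 1 array other than array 4. The dynein intermediate chains Dync1i1 (0.092, adjusted p = 0.25) and Dync1i2 (-0.078, adjusted p = 0.40), the light chain Dynlt1b (-0.17, adjusted p = 0.11) and the dynactin subunits Dctn5 (-0.056, adjusted p = 0.46) and Dctn6 (-0.12, adjusted p = 0.18) did not pass. Dctn5 was higher on all 6 Cy3 arrays, between 0.15 and 0.24, and lower on all 5 Cy5 arrays, between -0.73 and -0.066, and its dye term had the smallest adjusted p of the cytoskeletal probes (0.063).

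Partners of these proteins outside the symbol rule were taken from lists of microtubule regulators and motor adaptors. Of all probes tested, 14.7% were higher and 14% lower, 28.6% together. Of 25 probes of other microtubule regulators, 3 were higher and 3 lower (24% together), with a median log2 ratio of -0.088. Dpysl2, which binds tubulin dimers in growing axons, was higher on 11 of 11 arrays (0.52 ± 0.10, SE, adjusted p = 0.0022), Arl2, a regulator of tubulin folding, was lower on 10 of 11 (-0.19 ± 0.050, adjusted p = 0.013), and Tbca, a tubulin folding cofactor, on 7 of 11 (-0.32 ± 0.091, adjusted p = 0.017). Of 12 probes of motor adaptors and cargo linkers, 1 was higher and 6 were lower (58.3% together), with a median of -0.11. Hap1, which links cargo to dynactin and kinesin, was lower on 11 of 11 arrays, between -1.95 and -0.60 (-1.40 ± 0.075, SE, adjusted p = 3.5e-08). Kifc2, a minus-end kinesin of neurons, was lower on 11 of 11 (-0.38 ± 0.064, SE, adjusted p = 0.00078), and Mapk8ip1, a scaffold that binds kinesin light chain, was at -0.30 ± 0.068 (SE, adjusted p = 0.0050).

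Of the 16 calls among the cytoskeletal probes, 9 held whichever 1 array was left out: Tuba1c, Stmn4, Nefm and Kif20a higher, and Stmn3, Map7, Map1b, Mapre3 and Kif3b lower. The share of all calls on the array that held in this way was not counted. Leaving out 1 array cannot show how far a call rests on several arrays. The lowest values of Map1b were those of arrays 3, 4, 5 and 10, as described above. Without both arrays 1 and 6, whose wild-type age is in doubt, 2 probes were called higher, Tuba1c and Stmn4, and 5 lower, Stmn3, Map7, Map1b, Mapre3 and Sptbn1, the last of which did not pass over all arrays. The share of all probes called in that fit is not given here.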

How the data were processed

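RNA of 11 null embryos was compared with wild-type RNA on 11 arrays with 2 colours. The values are the authors' deposited log2 ratios per probe (base 2 assumed); scanner, background correction, normalization and direction: not given in the sources used here. Probes were named from the platform annotation, updated through Entrez identifiers to the RefSeq genes of GRCm38.p6, where 58 of the 59 probes matched. Of 6856 probes, 6269 had 1 gene symbol, 6 several and 581 none, and probes with several were not named.

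Ratios were fitted in limma 3.58.1 (R 4.3.3) with lmFit and eBayes, as a mean against 0 with a dye term, for probes with at least 8 values and at least 3 per dye, with 2-sided p-values adjusted by Benjamini-Hochberg over 5399 probes at 0.05. Pairs of probes of 1 role were compared by an exact 2-sided sign-flip permutation test of the array differences. The number of arrays limits the precision. In simulated data for this comparison (5399 probes, 200 changed), the fit made 152 calls, 9 of them false, and recovered in the right direction 26%, 64%, 96% and 100% of probes changed by 0.2, 0.3, 0.5 and 1 on the log2 scale. The simulation changed far fewer probes than were called in the data and drew independent noise for each probe. Its shares of recovered and false calls may therefore not hold for the data.

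The members, their roles and the pathway and marker lists were chosen with earlier results of these data known. Named with values are members called with an absolute ratio of at least 0.3, up to 3 called probes of smallest p per role, up to 3 per other pathway list, and, where measured, Tuba1a, Map1b, Map2, Dcx, Stmn1, the neurofilaments, Ina, Vim, Nes, Ank3, Sptan1 and Sptbn1, among others. The check of the mutated gene is not reported here. Alternatives changed the dye term, arrays, scaling, filter, variance and threshold. Fits on fewer arrays started from the probes of the full fit and left out those with too few remaining values. Sptb and Kif8, for example, were not in the fit without arrays 3, 4, 5 and 10. Figures were drawn with matplotlib 3.10.9.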

Additional observations from a re-analysis of the deposited data

Results flagged for a closer look

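Among the 15 cytoskeletal probes with values on 4 to 10 arrays, 3 had 1 array far from the others, and in each it was array 4. Sptb, a beta spectrin, was at 0.38 on array 4, with the nearest of the other 8 values at -0.090. Nefh was at 0.68 on array 4, with the nearest of the other 9 at 0.18. Kif8 was at 0.87 on array 4, with the nearest of the other 8 at 0.20. Chance alone gives such a value in about 1 in 20 groups. Array 4 also had the fewest probes with a value (4822) and the highest SD of all arrays (0.56).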

How the results depend on the processing

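In the fit of all arrays 7 probes were called higher and 9 lower. With 1 array left out, 4 to 7 probes were higher and 5 to 11 lower, with a median ratio between -0.075 and -0.052. The counts of higher and lower probes were 1 and 1 over the Cy5 arrays alone, 2 and 5 without arrays 1 and 6, 2 and 3 at an adjusted p of 0.01, 1 and 4 at 1.2-fold or more, and 4 and 5 by the sign-flip test. Higher calls fell to 4 without arrays 9 and 10 and with unmoderated variances. These counts are given without the share of all probes called in the same fits. They do not show whether calls were lost more among cytoskeletal probes than over the whole array. With the sign of the Cy5 arrays reversed, the fitted value is the dye term with its sign turned. That setting therefore repeats the dye test and is no test of the ratios of null over wild type. In it 0 cytoskeletal probes passed either way, beside 4 of all 5399 probes tested, and the median was 0.012. Under that setting Sptan1 was 0.35, Sptbn1 0.22, Dctn1 0.035, Nefl 0.077, Ina 0.010, Nes 0.017, Nefh -0.086, Map1b 0.30, Mapre3 0.11, Map2 0.096, Kif11 -0.069, Kif20a -0.019, Stmn1 0.035, Kif3b 0.060, Tuba1a 0.032 and Tuba1c -0.12. Nefh, near 0, was -0.078 over the Cy3 arrays, -0.065 without arrays 3, 4 and 10, -0.074 without array 5 as well, -0.028 with arrays scaled, -0.049 with array weights, and between -0.065 (without array 4) and 0.030 (without array 3) with 1 array left out, turning below 0 also without array 8 (-0.024). Map2 was 0.036 over the Cy3 arrays, 0.00011 without arrays 3, 4 and 10, and 0.042 without array 5 as well. Sptan1 was 0.13 without arrays 3, 4 and 10 and 0.44 without arrays 3, 4, 5 and 10, where Vim was -0.011. Leaving out arrays 3, 4, 5 and 10 was chosen after seeing the data, and those arrays hold the 4 lowest values of Sptan1, Map1b and Map2, so no test of these genes without them is given. The causes were not tested. No paired analysis was possible because each array is already a ratio of 1 mutant to the wild-type RNA, and there is only 1 group of ratios.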

Other observations

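The actin cytoskeleton, the other filament system of these cells, also held changes in both directions, as did the array as a whole. Of 36 probes on the actin list, 4 were higher and 9 lower (36.1% together), with a median log2 ratio of -0.061. The background was 14.7% higher and 14% lower (28.6% together). Arpc1b, a subunit of the Arp2/3 complex that nucleates branched actin, was higher (0.35 ± 0.050, SE, n = 11, limma adjusted p = 0.00019). Dbnl, an actin-binding protein of endocytosis and synapses, was lower (-0.53 ± 0.095, SE, n = 11, adjusted p = 0.0011), as was Actn2, an alpha-actinin (-0.33 ± 0.057, SE, n = 8, adjusted p = 0.0015). Cytoplasmic beta-actin, Actb, did not pass (0.068, adjusted p = 0.35), and Actg1 had the array profile of Tuba1a.

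Of the cytoskeletal probes, 7 had too few values to test. Tuba4a, an alpha tubulin, had a value of 1.04 on array 4 from 1 probe, and values of -0.66, -1.03 and -0.76 on arrays 3, 7 and 8 from the other. Map1a had 1 value (-0.46, on array 8), Kif12 had 2 (0.40 and -0.76), and Ank1, Kif13b and Kif9 had 4 each. With so few arrays these values allow no comparison.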
